A study of Homo sapiens with 6 samples.

Results

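The genes described are 9 genes of glucose uptake and glycolysis: SLC2A1, HK1, HK2, PFKL, PFKP, PFKFB3, PKM, LDHA and TXNIP. Their members are the listed 5-hydroxymethylcytosine (5hmC) and 5-methylcytosine (5mC) regions that touch the span of one of these genes or the 5 kb on either side of it, on hg19. The rule took 431 of the 593403 regions listed on chromosomes 1 to 22 and X. They were 116 of 191314 5hmC regions in high glucose, 154 of 209999 5hmC regions in normal glucose, 80 of 100220 5mC regions in high glucose and 81 of 91870 5mC regions in normal glucose. Gene names and spans come from the rule, since no hg19 annotation was used here, and exons, introns and UTRs under the regions were not assigned.

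The cells were A2058, an established human melanoma line, made to overexpress wild-type TET2, the enzyme that oxidises 5mC to 5hmC. They were grown for 7 days in high glucose or in normal glucose. The labels give neither the glucose concentrations nor whether the overexpressing line was 1 clone. All groups carried the overexpression, so none shows these genes without it. At each glucose level, DNA was immunoprecipitated with an antibody against 5hmC (hMeDIP-seq) or against 5mC (MeDIP-seq), and a list of enriched regions was deposited for each of the 4 libraries. An input library at each level, 2 in all, was not analysed here. With 1 library per mark and glucose level there is no replicate check, so no p-value is given for any difference between glucose levels. Intervals cover counting error only.

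SLC2A1 encodes the glucose transporter GLUT1, and the hexokinases HK1 and HK2 trap the sugar in the cell by phosphorylating it. PFKL and PFKP are the liver-type and platelet-type phosphofructokinases, which carry out the committed step of glycolysis, and PFKFB3 makes the strongest allosteric activator of that step. PKM, the pyruvate kinase gene, and LDHA, which turns pyruvate into lactate, act at the end of the pathway, while TXNIP is an arrestin-like protein that is induced by glucose and lowers glucose uptake. 5mC at CpG dinucleotides is the substrate of TET enzymes, and 5hmC is often found in gene bodies and at regulatory elements.

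The sequences shown are the 250 bases upstream of the start of the 6 genes that had a listed region within 1 kb of the start of their span, to let a reader see how many CpG dinucleotides, the usual site of both marks, these windows hold. They are from RefSeq on GRCh38.p14, written 5′ to 3′ on the strand of the gene, with each CG in capitals. Where a gene has several starts in the table, the outermost upstream one was taken, which need not be the start of the span on hg19. No position was converted between the builds.
HK1 (chr10:69269750-69269999, + strand): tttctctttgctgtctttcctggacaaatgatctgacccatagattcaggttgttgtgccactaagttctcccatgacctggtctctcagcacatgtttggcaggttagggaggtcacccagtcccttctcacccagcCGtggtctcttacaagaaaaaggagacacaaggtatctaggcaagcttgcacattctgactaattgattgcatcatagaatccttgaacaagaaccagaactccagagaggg
HK2 (chr2:74833877-74834126, + strand): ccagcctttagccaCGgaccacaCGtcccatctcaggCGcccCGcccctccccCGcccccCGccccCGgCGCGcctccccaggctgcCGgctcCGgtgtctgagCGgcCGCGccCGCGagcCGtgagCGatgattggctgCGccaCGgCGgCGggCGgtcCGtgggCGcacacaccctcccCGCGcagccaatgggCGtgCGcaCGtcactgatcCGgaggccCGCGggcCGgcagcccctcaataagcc
PFKP (chr10:3067720-3067969, + strand): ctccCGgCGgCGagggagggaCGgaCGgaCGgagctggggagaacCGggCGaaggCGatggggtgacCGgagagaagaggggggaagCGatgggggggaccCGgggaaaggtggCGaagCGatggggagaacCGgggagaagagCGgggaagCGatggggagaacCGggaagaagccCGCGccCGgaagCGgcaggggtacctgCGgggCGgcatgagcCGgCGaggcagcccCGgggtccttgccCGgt
PFKFB3 (chr10:6144671-6144920, + strand): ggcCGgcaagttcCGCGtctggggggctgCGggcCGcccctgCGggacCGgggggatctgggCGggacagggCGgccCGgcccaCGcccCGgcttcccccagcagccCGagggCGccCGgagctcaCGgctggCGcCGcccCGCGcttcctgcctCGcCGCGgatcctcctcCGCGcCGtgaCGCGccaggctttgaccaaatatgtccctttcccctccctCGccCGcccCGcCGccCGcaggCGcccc
PKM (chr15:72231191-72231440, - strand): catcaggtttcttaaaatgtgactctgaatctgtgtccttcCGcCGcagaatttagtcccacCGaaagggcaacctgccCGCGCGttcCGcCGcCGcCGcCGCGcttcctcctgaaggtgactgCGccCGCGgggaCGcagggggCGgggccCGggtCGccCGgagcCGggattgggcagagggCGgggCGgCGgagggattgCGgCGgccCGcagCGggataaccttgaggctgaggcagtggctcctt
TXNIP (chr1:145996580-145996829, - strand): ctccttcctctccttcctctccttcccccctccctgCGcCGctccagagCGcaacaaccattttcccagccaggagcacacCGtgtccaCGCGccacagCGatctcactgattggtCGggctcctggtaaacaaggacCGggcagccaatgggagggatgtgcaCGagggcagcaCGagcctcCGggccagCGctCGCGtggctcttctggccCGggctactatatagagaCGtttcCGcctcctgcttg

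All 9 genes were matched in the RefSeq table by symbol. HK2 and PFKFB3 each had 34 CG dinucleotides in the window, PFKP and PKM 28 each, TXNIP 18 and HK1 1. Of the 3 windows not shown, PFKL had 30, SLC2A1 24 and LDHA 22. The median over the 9 genes was 28, against 11 over the 35116 promoter windows of the table. HK1 thus stood apart from the other members, with a CpG-poor window at the outermost of its 7 starts. The E-box CACGTG was found in LDHA alone, with 2 matches that begin at positions -185 and -87 from the start, and in 6.34% of all windows. The shorter motif ACGTG, the core of the hypoxia response element, was looked for on both strands and overlaps the E-box. It was found in LDHA, with 5 matches, and in HK2, with 2 that begin at -229 and -48, and in 18.5% of all windows. In LDHA, the matches at -185, -184, -87 and -86 are the 2 E-boxes read on both strands, and that at -73 is separate. LDHA is a well-known target of MYC and of hypoxia-inducible factor, which bind these motifs.

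TXNIP held neither motif. Its window held the paired motif CACGAG, 5 bases of any kind, CACGAG, at positions -88 to -72, which is the known carbohydrate response element through which MondoA and ChREBP act in high glucose. It is shown because TXNIP is the member whose promoter is best known to respond to glucose, with the paired motif in capitals.
TXNIP element: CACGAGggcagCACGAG
This motif was looked for after the sequence had been seen, on both strands, and was present in 2 of the 35116 windows, or 0.0057%. TXNIP was the 1 member among them. A match is a description of the letters only.

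Both marks were dense over the 9 genes as a group. The 9 windows, 0.554 Mb in all, were covered to 15.8% and 21.1% by 5hmC regions in high and normal glucose, and to 14.6% and 13.1% by 5mC regions. Over the whole lists, the regions covered 3.90%, 4.23%, 2.42% and 2.25% of chromosomes 1 to 22 and X. LDHA, at 3.10%, 3.28%, 2.18% and 2.27% in the same order, was near or below these values. TXNIP, at 4.60%, 1.99%, 4.00% and 3.35%, was below its list for 5hmC in normal glucose and above it in the other lists. HK1, at 4.82%, 7.89%, 3.09% and 3.16%, lay above each list. Each gene was also set against windows of its length that held a region of any list. For 5hmC in high glucose, 99.6% of these had lower cover than SLC2A1, 99.2% than PFKL and 99.1% than PFKP. The share was 97.5% for PFKFB3, 95.7% for PKM, 88.5% for HK2, 72.8% for HK1, 56.4% for TXNIP and 49.1% for LDHA. Other genes were not measured, so the density is not shown to be particular to these 9. The members also lay closer together than the regions of the whole lists, at 20.9, 27.8, 14.4 and 14.6 per 100 kb against 6.49, 7.13, 3.40 and 3.12. They were wider, with median widths of 592, 596, 663 and 612 bp against 464, 443, 500 and 507 bp. Their median fold enrichment over background, a value of the authors' lists, was slightly lower than in the whole lists for 5hmC and higher for 5mC. The medians were 4.27, 4.19, 7.91 and 7.65 against 4.47, 4.34, 6.58 and 6.70. A -log10 p of 10 or more was reached by 38.8%, 31.8%, 58.8% and 61.7% of members, against 49.9%, 40.6%, 51.8% and 51.5% of the lists.

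**Figure D1:**
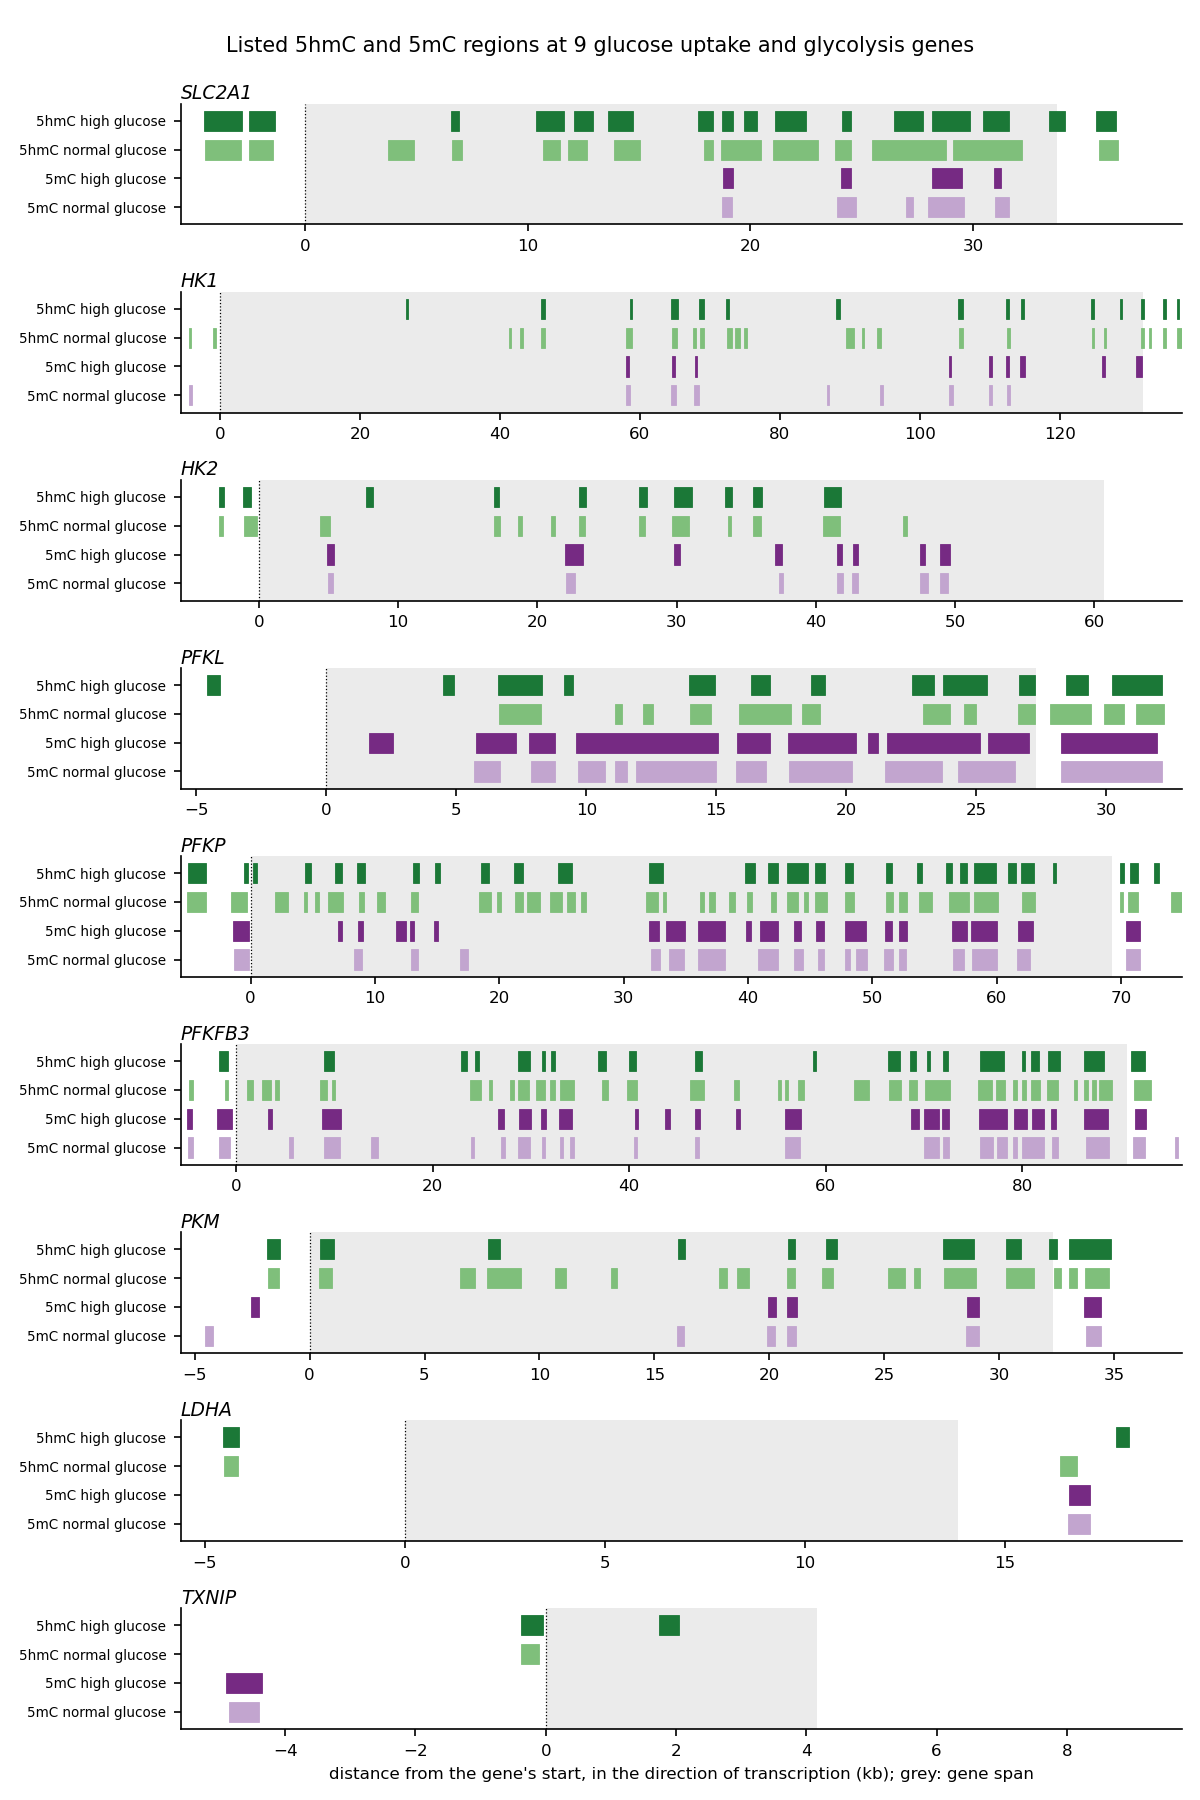
Every listed region at the 9 genes, drawn as a box from its upstream to its downstream edge in kb from the start of the gene, for the 4 lists in rows (green, 5hmC; purple, 5mC; dark, high glucose; light, normal glucose). Each panel has its own scale; PFKL is covered by long 5mC regions, while SLC2A1 carries 5hmC along its length and LDHA none inside its span.

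Read numbers were inferred from the fold and p of each region. For an assumed genome of 2700 Mb, the 5hmC libraries held 28.0 M reads in high and 27.5 M in normal glucose, and the 5mC libraries 6.14 M and 5.11 M. The commonest expected number of fragments at a position, read as the background, was 3.03 and 2.64 for 5hmC and 0.737 and 0.615 for 5mC. A 5mC region therefore rests on fewer fragments than a 5hmC region of the same fold. At the member regions, the number of fragments at the summit ran from 10 to 56 with a median of 19 in the high-glucose 5hmC list and from 8 to 47 with a median of 17 in the normal-glucose one. In the 5mC lists it ran from 5 to 86 with a median of 14 in high glucose and from 6 to 64 with a median of 12 in normal glucose.

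**Figure D2:**
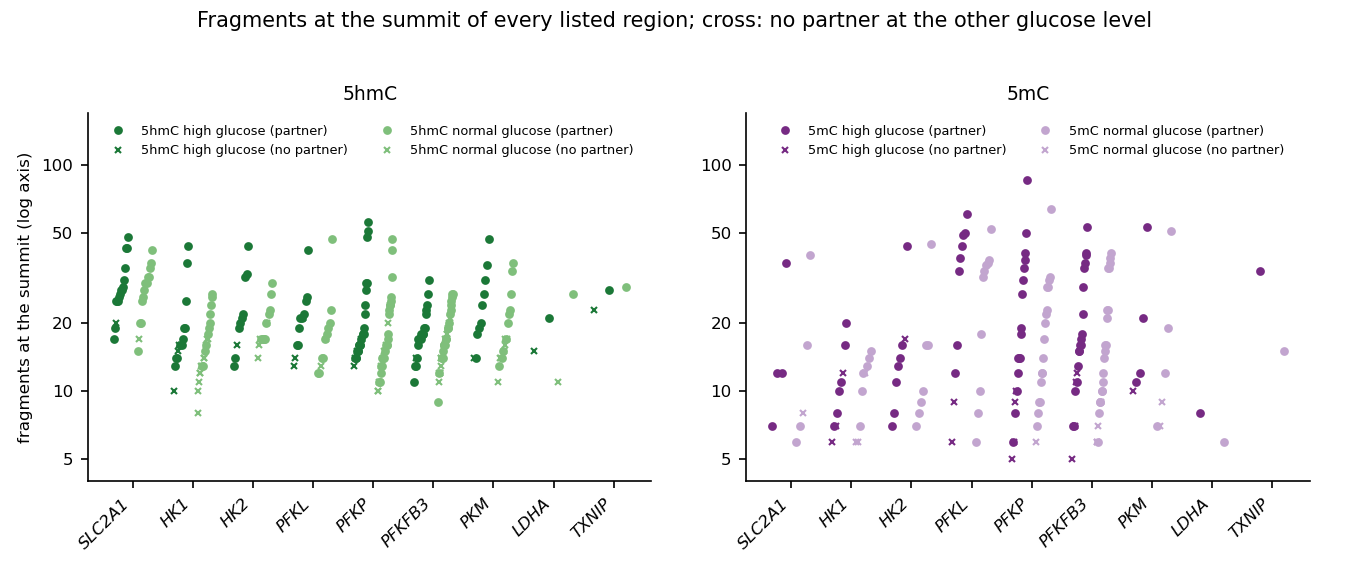
Number of fragments at the summit (log axis) of each of the 431 regions, by gene and list, with a dot for a region that had a partner of the same mark at the other glucose level and a cross for one that had none. The crosses lie mostly low in each column, and the highest point of all is a 5mC region of PFKP in high glucose with 86 fragments.

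Fewer 5hmC regions were listed at these genes in high glucose than in normal glucose. The ratio of 116 to 154 was 0.753, with an exact 95% interval of 0.587 to 0.965 for counting. Over the whole lists the ratio was 0.911, which lies inside that interval, so at this number of regions the genes could not be told apart from the list as a whole. By gene, high glucose had fewer 5hmC regions at HK1, HK2, PFKP, PFKFB3 and PKM, as many at PFKL and LDHA, and more at SLC2A1 and TXNIP. The covered length was lower in high glucose at 8 of the 9 genes, with TXNIP the exception, and came to 87.3 kb against 117.0 kb, a ratio of 0.746. Over the whole lists that ratio was 0.922. PFKFB3 contributed most to the difference, with 21 against 36 regions, and without it the ratio was 0.805 with an interval of 0.608 to 1.06. At a -log10 p of 10 or more the ratio was 0.918, or 45 to 49, with an interval of 0.599 to 1.41. At that threshold the whole lists held more 5hmC regions in high glucose, 95542 against 85278.

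For 5mC the numbers were nearly equal, 80 with high and 81 with normal glucose, which gives a ratio of 0.988 with an interval of 0.716 to 1.36. The whole-list ratio was 1.09. High glucose had fewer 5mC regions at 3 genes, as many at 4 and more at 2. The covered length was 80.7 kb with high and 72.5 kb with normal glucose, or 1.11 times, and was larger in high glucose at 5 genes and smaller at 4. The high-glucose 5mC library was also the deeper of its pair, and the part of depth in these ratios at the threshold of the lists was not tested. The ratio of region numbers was 0.940, or 47 to 50, at a -log10 p of 10 or more, and 0.880, or 44 to 50, when the background was matched as well. The whole 5mC lists held 51893 and 47297 regions in high and normal glucose in the first setting, and 45066 and 47297 in the second. It was above 1 when no bases were added to the gene spans, at 1.01, and without PFKFB3, at 1.02, so it has no firm direction.

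**Figure D3:**
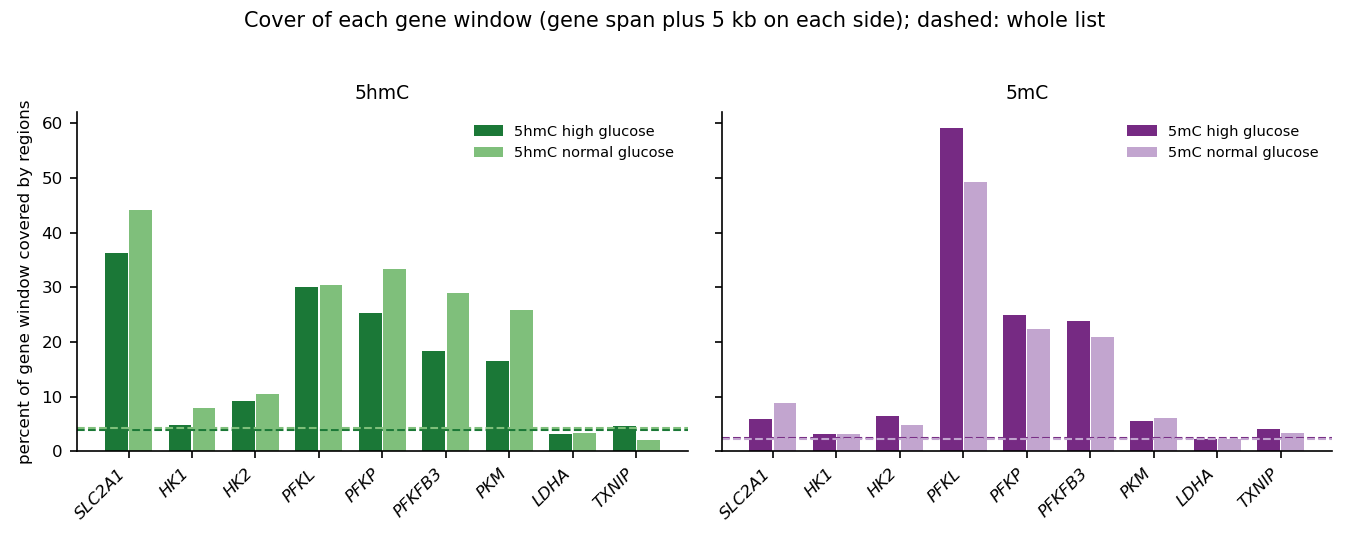
Percent of each gene window (the gene span plus 5 kb on each side) covered by listed regions, with bars for the 2 glucose levels of each mark and dashed lines for the percent of chromosomes 1 to 22 and X covered by the whole list. 5hmC cover was highest at SLC2A1, at 36.2% and 44.2%, and 5mC cover at PFKL, at 59.2% and 49.2%.

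Most regions at these genes were listed at both glucose levels. A region was called without a partner when no region of the same mark at the other level overlapped it by at least 1 bp. In high glucose, 19 of 116 5hmC regions had no partner, or 16.4% (exact 95% interval 10.2 to 24.4), against 24.1% of the whole list. Of those in normal glucose, 53 of 154 had none, or 34.4% (27.0 to 42.5), against 31.2%. For 5mC, 15 of 80 regions in high glucose, or 18.8% (10.9 to 29.0), had no partner against 28.3% of the list, and 11 of 81 in normal glucose, or 13.6% (6.98 to 23), against 21.5%. The list share lay within the interval in each case, so none of the 4 shares could be told apart from its list at this number of regions.

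**Figure D4:**
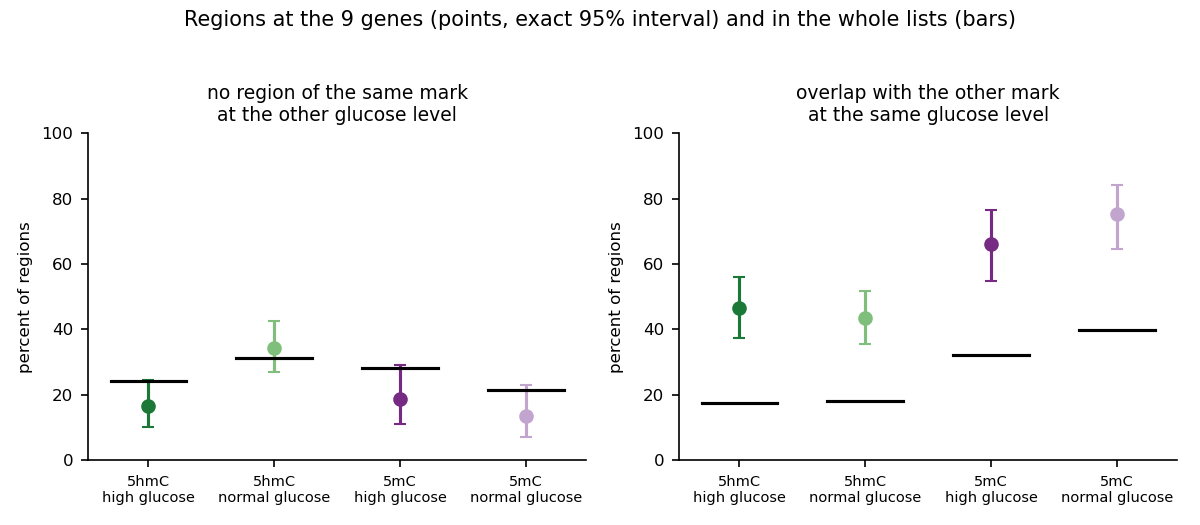
Percent of the regions at the 9 genes without a partner of the same mark at the other glucose level (left) and with an overlapping region of the other mark at the same level (right), with exact 95% intervals for counting and black bars for the whole lists. On the left the bars lie inside the intervals; on the right all 4 points lie above their bars.

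The regions without a partner were the weak ones. Their median -log10 p was 6.22 in the high-glucose 5hmC list against 9.18 for regions with a partner, and 6.26 against 8.92 in the normal-glucose list. In the 5mC lists it was 7.32 against 15.7 in high and 6.12 against 15.2 in normal glucose. They were also narrower, with median widths of 361, 414, 401 and 335 bp against 670, 783, 730 and 672.5 bp. When the regions counted were those at a -log10 p of 10 or more, with partners from the full lists, 1 of 45, 4 of 49, 3 of 47 and 1 of 50 had no partner, in the order 5hmC high, 5hmC normal, 5mC high and 5mC normal glucose. As shares these were 2.22%, 8.16%, 6.38% and 2.00%, against 9.88%, 8.9%, 6.97% and 4.21% of the equally strong regions of the whole lists, each within the interval of the members' share. These 9 regions are placed with their genes in the paragraphs on each gene. With both 5hmC lists kept at that threshold, 11 of 45 high-glucose regions had no partner, or 24.4% against 35.3% of the list. If partners had to share 50% of both regions, the shares without one were 38.8%, 53.9%, 32.5% and 33.3%, against 37%, 42.6%, 37.5% and 31.8% of the whole lists under the same rule. The list share then lay within the members' interval except for 5hmC in normal glucose, where the interval was 45.7 to 61.9. Where a pair was listed at both levels, the summits lay a median of 83 bp apart over 107 5hmC pairs and 106.5 bp apart over 72 5mC pairs.

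The 2 marks shared much of their ground. Of the 5mC regions, 53 of 80 in high glucose, or 66.2% (54.8 to 76.4), overlapped a 5hmC region of the same glucose level, against 32.2% of the whole list. In normal glucose it was 61 of 81, or 75.3% (64.5 to 84.2), against 39.7%. Read from the other mark, 54 of 116 5hmC regions in high glucose overlapped 5mC, or 46.6% against 17.6% of the list, and 67 of 154 in normal glucose, or 43.5% against 18%. The members' windows were covered by 5hmC 4.04 and 4.99 times as densely as the genome, and the part of this density in the overlap was not tested. With both lists kept at a -log10 p of 10 or more, the 5mC shares were 42.6% and 42.0%, against 23.9% and 27.3% of the whole lists, and after the background was matched as well they were 38.6% and 42.0%, against 22.3% and 27.3%. With 50% of both regions shared they were 36.2% and 33.3%, against 14.2% and 17.3%. Strong 5mC regions met a 5hmC region of the full lists at 78.7% and 86.0%, against 41.5% and 49.9%. The list share lay below the members' interval in each of these settings. The settings re-use the same regions, so they are not separate evidence. The intervals take regions as independent, although the regions of a gene share their surroundings, and are too narrow if they are not.

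The overlap was not even over the 9 genes. PFKL, PFKP and PFKFB3, the genes of the phosphofructokinase step, made up 39.2% of the length of the windows and held 52 of 80 and 52 of 81 5mC regions. At these 3 genes 75.0% of 5mC regions in high glucose and 84.6% in normal glucose overlapped 5hmC, against 50% and 58.6% at the other 6 genes. Of the 5hmC regions there, 65.6% and 59.5% overlapped 5mC, against 25.5% and 24.3% at the other 6. Among those 6, SLC2A1 had 5hmC at 4 of 4 and 5 of 5 of its 5mC regions, and HK2 at 3 of 8 and 2 of 7. A high share of 5mC with 5hmC was thus not confined to the 3 genes. The grouping into 3 and 6 genes was made after the values had been seen, and the regions of a gene share their surroundings, so it is a description with no test. PFKP and PFKFB3 also lie near the same end of chromosome 10. The part of position along a chromosome in these shares was not tested.

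When overlapping regions of the 4 lists were joined, the 9 genes held 174 stretches. All 4 lists were present at 41 of them, or 23.6%, against 7.41% of the 319166 stretches of the genome. These were 13 at PFKP, 12 at PFKFB3, 5 at PFKL, 3 each at SLC2A1, HK1 and PKM, and 2 at HK2. LDHA and TXNIP had none. Stretches with 5hmC at both glucose levels and no 5mC numbered 39, or 22.4% against 34.0%. Those with 5hmC in normal glucose alone numbered 34, or 19.5% against 16.9%, and those with 5hmC in high glucose alone 16, or 9.20% against 12.9%. 5mC at both levels without 5hmC was seen at 9, or 5.17% against 11.3%.

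Some stretches had 5mC at both glucose levels and 5hmC at 1 level. In 9 of them the 5hmC was listed in normal glucose, or 5.17% against 2.05% of all stretches, and in 0 in high glucose, against 0.805%. The 9 were 3 at PFKP, 3 at PFKFB3 and 1 each at HK1, HK2 and LDHA. Distances to the nearest high-glucose 5hmC region were taken from the normal-glucose 5hmC region, and are shorter from the edge of some joined stretches. Some of the 9 had it close by without overlap, 37 bp and 575 bp away at PFKP, 410 bp at HK1 and 494 bp at PFKFB3. Others had it farther off, 2408 bp at the strongest 5mC region of PFKP and 2589 bp at HK2. The numbers thus depend on the rule of 1 bp, and do not show that 5hmC was absent in high glucose. Other stretches had each mark at 1 level, and the levels were opposite. 5hmC in normal glucose with 5mC in high glucose was seen at 3, 2 at PFKFB3 and 1 at HK1, or 1.72% against 0.443% of all stretches. The reverse was seen at 1, at PKM, or 0.575% against 0.142%.

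SLC2A1 (chr1:43391046-43424847, minus strand) carried mainly 5hmC. It had 16 5hmC regions in high and 14 in normal glucose, and 4 and 5 5mC regions. The 5hmC regions covered 15.8 kb and 19.4 kb of its window, 36.2% and 44.2%, the highest of the 9 genes for this mark. Normal glucose had fewer regions and more cover, and 2 of its regions were long. These lay at chr1:43396042-43399386, 3345 bp, and at chr1:43392633-43395724, 3092 bp, toward the end of the gene, where high glucose had several shorter regions. The longer of the pair was also the strongest 5hmC region of the gene in normal glucose, with a fold of 10.7 and 42 fragments at the summit. In high glucose the strongest lay upstream of the gene, at chr1:43427690-43429425, with a fold of 7.34 and 43 fragments, and normal glucose had a region there too.

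5mC at SLC2A1 covered 5.89% and 8.88% of the window. All 4 and all 5 of its 5mC regions overlapped 5hmC. The strongest was chr1:43395331-43396661 in high glucose, with a fold of 17.5 and 37 fragments, and chr1:43395243-43396863 in normal glucose, with a fold of 18.5 and 40 fragments. No region of either mark came within 1 kb of the start. The nearest 5hmC regions ended 1383 bp and 1474 bp upstream of it. SLC2A1 had no region without a partner at a -log10 p of at least 10.

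HK1 (chr10:71029740-71161638), the hexokinase found in most tissues, was the longest gene and among the more sparsely covered ones. It had 15 and 23 5hmC regions, which covered 4.82% and 7.89% of the window, and 9 and 9 5mC regions, which covered 3.09% and 3.16%. Of its 23 5hmC regions in normal glucose, 12 had no partner in high glucose, against 31.2% of the whole list. Of its 15 in high glucose, 4 had none in normal glucose, against 24.1%. None of these 16 reached a -log10 p of 10. The strongest 5hmC region in high glucose was chr10:71075631-71076151, with a fold of 10.8 and 44 fragments against 3.16 expected. In normal glucose it was chr10:71094291-71095110, with a fold of 7.70 and 27 fragments against 2.64 expected.

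The strongest 5mC regions of HK1 lay toward the end of the gene, at chr10:71139580-71140101 in high glucose, with a fold of 12.1 and 20 fragments, and at chr10:71142223-71142669 in normal glucose, with a fold of 9.91 and 15 fragments. HK1 held 2 of the 9 stronger regions without a partner, 1 at each glucose level. In high glucose, 5mC was listed at chr10:71160668-71161465, at the very end of the gene, with 12 fragments and a fold of 6.80, and the nearest 5mC region in normal glucose was 5791 bp away. In normal glucose, 5mC was listed at chr10:71025313-71025729, in the upstream flank, with 12 fragments and a fold of 7.48, and the nearest 5mC region in high glucose was 10254 bp away. Near the start, the 1 region was a weak 5hmC region in normal glucose at chr10:71028716-71029087, with 12 fragments and a fold of 3.41, and high glucose had none within 10916 bp of it.

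HK2 (chr2:75059782-75120486) is the inducible hexokinase that many tumours express. It had 10 and 13 5hmC regions covering 9.12% and 10.5% of its window, and 8 and 7 5mC regions covering 6.43% and 4.75%. Its strongest 5hmC region lay just upstream of the start at both glucose levels. In high glucose it spanned chr2:75058672-75059188, with a fold of 10.1 and 44 fragments against 3.48 expected. In normal glucose it spanned chr2:75058708-75059643, with a fold of 7.36 and 30 fragments against 3.21 expected. The summits lay at -856 and -881 from the start, and the normal-glucose region reached closer to it, to 139 bp against 594 bp.

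No 5mC region lay within 1 kb of the start of HK2. The strongest 5mC regions were far inside the gene, at chr2:75108728-75109457 in high glucose, with a fold of 23.5 and 44 fragments against 0.913 expected, and at chr2:75108729-75109286 in normal glucose, with a fold of 14.9 and 45 fragments against 2.09 expected. The fragments were nearly equal there and the folds differed with the expected count, so the folds cannot be set against each other across lists. HK2 had 1 stronger region without a partner, 5mC in high glucose at chr2:75089633-75090033, with 17 fragments and a fold of 7.32. The nearest 5mC region in normal glucose was 7075 bp away, and 5hmC was listed over the site at both glucose levels.

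PFKL (chr21:45719934-45747259) was the member with the densest 5mC. It had 10 5mC regions at each glucose level, which covered 22.1 kb, 59.2% of the window, in high glucose and 18.4 kb, 49.2%, in normal glucose. The regions were long, with median widths of 1572.5 and 1676.5 bp and a longest one of 5461 bp in high glucose and 3870 bp in normal glucose. The median fold was 19.6 and 19.3. The strongest lay at chr21:45735726-45737021 in high glucose, with a fold of 32.9 and 61 fragments, and at chr21:45735705-45736861 in normal glucose, with a fold of 25.9 and 52 fragments.

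PFKL had 12 5hmC regions at each level, covering 30.0% and 30.5% of the window, and 9 of 12 and 11 of 12 of these overlapped 5mC. The strongest 5hmC regions, at chr21:45736271-45736991 in high glucose with a fold of 7.17 and 42 fragments and at chr21:45735824-45737821 in normal glucose with a fold of 8.43 and 47 fragments, lay over the strongest 5mC regions. The 1 stronger region without a partner was 5hmC in high glucose at chr21:45724417-45724859, with 21 fragments and a fold of 5.46, and the nearest 5hmC region in normal glucose was 1722 bp away. No region of either mark lay within 1 kb of the start.

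PFKP (chr10:3109712-3178997) held the strongest region of all 431. This was 5mC in the middle of the gene, at chr10:3145646-3147884 in high glucose, with a fold of 50.1, a -log10 p of 144 and 86 fragments against 0.737 expected. In normal glucose it spanned chr10:3145652-3147819, with a fold of 40.3, a -log10 p of 105 and 64 fragments against 0.615 expected. By -log10 p it ranked in the top 0.869% and 1.61% of its lists. Inside it, 5hmC was listed in normal glucose alone, in 2 regions. The stronger, at chr10:3146564-3147083, had 20 fragments and a fold of 5.50, and the nearest 5hmC region in high glucose was 2408 bp away. The weaker, at chr10:3145862-3146197, had 13 fragments and a fold of 3.85, and lay 3019 bp from the nearest one in high glucose. The stretch is 1 of the 9 with 5mC at both levels and 5hmC in normal glucose.

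The gene had 28 and 36 5hmC regions, covering 25.3% and 33.4% of the window, and 20 and 18 5mC regions, covering 24.9% and 22.3%. Of the 5hmC regions, 5 of 28 in high glucose and 12 of 36 in normal glucose had no partner, against 24.1% and 31.2% of the whole lists. Its strongest 5hmC region by -log10 p was chr10:3141709-3142843 in high glucose, with a fold of 12.9 and 51 fragments against 3.03 expected, and chr10:3141528-3142478 in normal glucose, with a fold of 6.34 and 47 fragments against 6.57 expected. A second stronger 5hmC region without a partner lay downstream of the gene in normal glucose, at chr10:3183727-3184692, with 24 fragments and a fold of 6.38, and 833 bp from the nearest 5hmC region in high glucose.

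PFKP was 1 of the 2 members with 5mC within 1 kb of the start. The 5mC region spanned chr10:3108277-3109569 in high glucose, with a fold of 24.2 and 41 fragments, and chr10:3108376-3109562 in normal glucose, with a fold of 20.4 and 32 fragments, and ended 143 bp and 150 bp before the start. 5hmC overlapped it at both levels with fewer fragments over background, at chr10:3109220-3109529 in high glucose, with 15 fragments and a fold of 3.97, and at chr10:3108140-3109405 in normal glucose, with 13 and 3.85. High glucose had another 5hmC region just inside the gene, at chr10:3109911-3110202, with 17 fragments and a fold of 4.47, and the nearest 5hmC region in normal glucose was 506 bp away.

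PFKFB3 (chr10:6186881-6277507) had the largest difference in number of 5hmC regions between the glucose levels, 21 in high and 36 in normal glucose, which covered 18.3% and 28.9% of the window. The ratio was 0.583, with an exact 95% interval of 0.324 to 1.03 for counting. In normal glucose 14 of the 36 had no partner, against 31.2% of the whole list, and in high glucose 2 of the 21, against 24.1%. Of these 14, 2 reached a -log10 p of 10. They lay at chr10:6219815-6221224, with 21 fragments and a fold of 5.76, and at chr10:6249739-6251221, with 19 fragments and a fold of 5.24. The nearest 5hmC regions in high glucose were 494 bp and 1987 bp away.

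5mC at PFKFB3 had 22 regions in high and 24 in normal glucose, covering 23.8% and 20.9% of the window. The strongest 5mC region in high glucose was chr10:6256894-6258358, with a fold of 31.1 and 53 fragments, and in normal glucose chr10:6242717-6244283, with a fold of 24.7 and 41 fragments. The strongest 5hmC regions had lower folds than at most other members, 6.95 with 27 fragments at chr10:6262513-6264974 in high glucose and 7.35 with 26 fragments at chr10:6215529-6216683 in normal glucose. 5mC without a partner at a -log10 p of at least 10 was listed in high glucose at chr10:6230561-6231042, with 12 fragments and a fold of 7.48, and 2574 bp from the nearest 5mC region in normal glucose.

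The upstream flank of PFKFB3 resembled that of PFKP in having both marks at both levels. 5mC spanned chr10:6184913-6186484 in high glucose, with a fold of 21.9 and 37 fragments, and chr10:6185118-6186285 in normal glucose, with a fold of 23.5 and 37 fragments. The regions ended 397 bp and 596 bp before the start of the span. 5hmC lay inside them, at chr10:6185137-6186073 with 14 fragments and a fold of 3.72 in high glucose, and at chr10:6185754-6186037 with 12 fragments and a fold of 3.57 in normal glucose.

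PKM (chr15:72491370-72523727, minus strand) had 10 and 17 5hmC regions covering 16.5% and 25.8% of its window, a ratio in number of 0.588 with an interval of 0.241 to 1.36. It had 5 and 6 5mC regions covering 5.63% and 6.17%. Of the 17 5hmC regions in normal glucose, 7 had no partner in high glucose, none of them at a -log10 p of 10. Over the whole list 31.2% had no partner. 5hmC just inside the gene was listed at both levels, at chr15:72522670-72523255 in high glucose, with a fold of 8.0 and 47 fragments, and at chr15:72522752-72523307 in normal glucose, with a fold of 8.88 and 34 fragments. The summits lay at 699 and 657 bp from the start, and the high-glucose one was the strongest 5hmC region of the gene at that level.

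The strongest 5mC regions of PKM lay downstream of the gene, at chr15:72489274-72490021 in high glucose, with a fold of 19.1 and 53 fragments against 1.83 expected, and at chr15:72489275-72489940 in normal glucose, with a fold of 30.9 and 51 fragments against 0.681 expected. As at HK2, the fragments were nearly equal and the folds followed the expected count. In normal glucose the strongest 5hmC region of the gene lay over them, at chr15:72488966-72489986, with a fold of 9.70 and 37 fragments. No 5mC region lay within 1 kb of the start.

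LDHA (chr11:18415936-18429765) had no listed region of either mark inside its span at either glucose level. Its 2 5hmC regions in each list and 1 5mC region in each list all lay in the flanks. Upstream, 5hmC was listed at chr11:18411384-18411786 in high glucose, with a fold of 5.46 and 21 fragments, and at chr11:18411409-18411772 in normal glucose, with a fold of 7.70 and 27 fragments, more than 4 kb before the start. Downstream, weak 5mC regions at chr11:18432552-18433071 and chr11:18432524-18433063 rested on 8 and 6 fragments. In normal glucose a 5hmC region with 11 fragments, at chr11:18432319-18432736, overlapped the 5mC. The nearest 5hmC region in high glucose, with 15 fragments at chr11:18433715-18434050, lay 979 bp from that 5hmC region. An empty span says only that neither mark passed the threshold of its list there at this depth.

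TXNIP (chr1:145438462-145442628), the shortest member, had 5hmC just upstream of its start at both glucose levels. The region spanned chr1:145438079-145438418 in high glucose, with a fold of 4.57 and 28 fragments against 5.35 expected, and chr1:145438084-145438365 in normal glucose, with a fold of 4.39 and 29 fragments against 5.84 expected. The regions spanned positions -383 to -44 and -378 to -97 from the start of the span on hg19, with summits at -251 and -239. The values of the libraries were close to each other. The carbohydrate response element shown for TXNIP is placed from the RefSeq start on GRCh38.p14, so whether it lies under these regions base by base was not examined.

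High glucose had a further 5hmC region inside TXNIP, at chr1:145440194-145440504, with 23 fragments and a fold of 3.28 against 6.32 expected fragments. The nearest 5hmC region in normal glucose was 1829 bp away. With 2 regions against 1, TXNIP was the 1 member with more 5hmC cover in high glucose, 0.651 kb against 0.282 kb. 5mC was listed in the far upstream flank at both levels, at chr1:145433548-145434114 in high glucose, with a fold of 17.9 and 34 fragments, and at chr1:145433595-145434068 in normal glucose, with a fold of 9.12 and 15 fragments, more than 4 kb from the start.

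Around the 9 starts, regions of both marks were listed. The 5hmC lists hold more regions and come from deeper libraries than the 5mC lists, so the numbers of the marks are not set against each other. A 5hmC region lay within 1 kb of the start at 5 genes in high glucose (HK2, PFKP, PFKFB3, PKM and TXNIP) and at these and HK1 in normal glucose. A 5mC region lay there at PFKP and PFKFB3, at both levels. SLC2A1, PFKL and LDHA had none. Both marks were thus listed at PFKP and PFKFB3, and 5hmC without a listed 5mC region at HK2, PKM and TXNIP, where 5mC under the threshold of its shallower lists cannot be seen. All of the near-start regions but the PKM region and the inner one of PFKP lay upstream of the start.

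**Figure D5:**
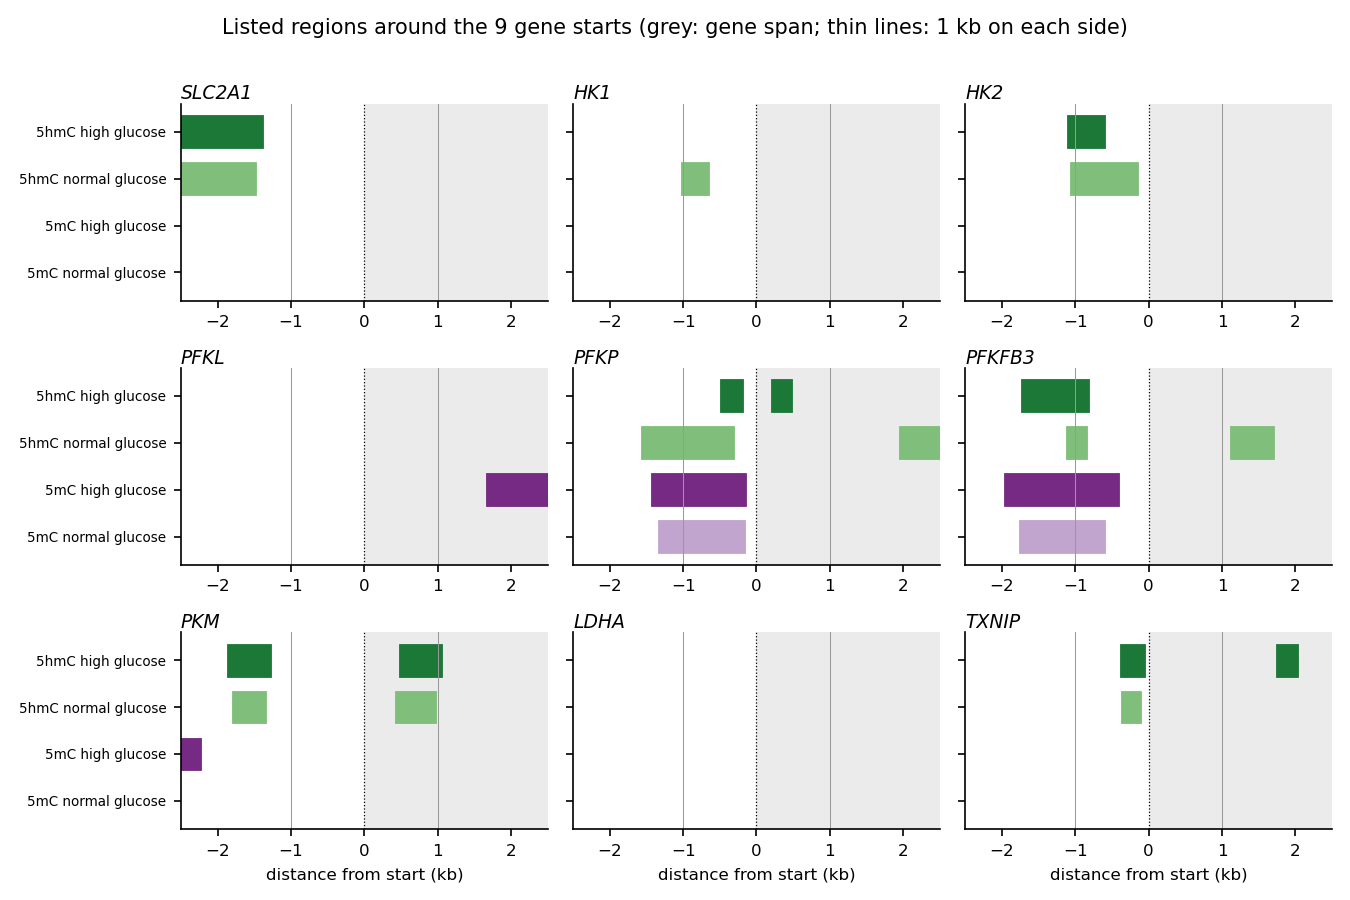
Listed regions within 2.5 kb of the start of each gene span, in kb along the direction of transcription, in the same rows and colours for the 4 lists, with thin lines at 1 kb. 5mC within 1 kb of the start is seen at PFKP and PFKFB3 at both glucose levels, and 5hmC without a listed 5mC region at HK2, PKM and TXNIP.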

How the data were processed

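hMeDIP-seq and MeDIP-seq libraries of A2058 cells were used through 1 deposited peak list per library, and the 2 inputs were left out. Groups were taken from the titles. Peak names inside the lists use other words (Ctrl, Low), and the labels were followed. The build was hg19, and the tools were bedtools 2.17.0, SAMtools 0.1.18, Bowtie 1.0.0 and CASAVA 1.8.2, per the submitters' processing notes. The caller, its control and its handling of duplicates were not given in the sources used here. For each peak, the authors' deposited lists give a display score, a summit, a fold enrichment (a ratio), a -log10 p-value and a -log10 q-value, with q-values up to 0.05. The score was not used. The fold and p were used within a list to rank or filter.

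Whole fragment numbers t and expected counts L were worked out from fold = (t + 1)/(L + 1) and the Poisson p, and were found for 100% of rows. The search and the overlap calls each recovered 100% of 5000 simulated regions. Overlaps of at least 1 bp were counted in pandas 2.3.3 and NumPy 2.4.6 (Python 3.11.15) and gave the numbers of bedtools 2.31.1. Intervals are exact Clopper-Pearson 95% (SciPy 1.17.1), and cover counting alone, since the labels name no molecular identifiers and reads may be copies of 1 molecule. Those of the ratios take the 2 lists as separate counts, although many regions were listed at both levels. The start is the 5′ end of each span, with SLC2A1 and PKM on the minus strand. TXNIP lies on the minus strand in the GRCh38.p14 table and on the plus strand in hg19. Regions named are the strongest per gene and list, those without a partner at a -log10 p of 10 or more and those within 1 kb of a start. The 2 long SLC2A1 regions, the nearest regions upstream of SLC2A1, the further regions of LDHA, the weaker 5hmC region in the strongest PFKP region and the inner TXNIP region were named after their values were seen. The genes, lists and thresholds were chosen with earlier results of these data known. Other genes of the pathway were not analysed here. Alternatives were a -log10 q of at least 2, a -log10 p of at least 10, windows with 0 or 10 kb added, overlap of 50% or within 500 bp, matched background, covered bases and gene leave-outs.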

Additional observations from a re-analysis of the deposited data

How the results depend on the processing

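No paired analysis was possible because each group is 1 library and no result comes from a test. Over 76 alternatives of the 8 results, 59 stayed within the counting interval and 17 moved. The 5hmC ratio of high to normal glucose stayed below 1 throughout. The 5mC ratio, whose interval includes 1, went from 0.988 to above 1 with no bases added (1.01), without PFKFB3 (1.02) and by covered bases (1.11). With every list kept at a -log10 p of at least 10, 24.4% of high-glucose 5hmC regions had no partner, against 35.3% of the whole list. In that setting 42.6% and 42.0% of 5mC regions in high and normal glucose overlapped 5hmC, against 23.9% and 27.3%. With 50% of both regions shared, the shares without a partner were 38.8% and 53.9% for 5hmC in high and normal glucose, against 37% and 42.6%. For 5mC they were 32.5% and 33.3%, against 37.5% and 31.8%. The 5mC shares with 5hmC were then 36.2% and 33.3%, against 14.2% and 17.3%. With matched background and a -log10 p of at least 10, the 5mC shares with 5hmC were 38.6% and 42.0%, against 22.3% and 27.3%. A setting with strong regions and partners from the full lists was added once the data had been seen. Its shares without a partner were 2.22%, 8.16%, 6.38% and 2.00%, against 9.88%, 8.9%, 6.97% and 4.21% of the whole lists. Its 5mC shares with 5hmC were 78.7% and 86.0%, against 41.5% and 49.9%. A stricter threshold on all lists removes weak partners, while the last setting keeps them. The 5hmC ratio was 0.918 (0.599 to 1.41) at a -log10 p of 10 or more and 0.816 (0.524 to 1.27) with matched background as well. At that threshold without matching, the whole lists held 95542 5hmC regions in high and 85278 in normal glucose. The weakest 5mC regions rest on 5 and 6 fragments. A region absent from a list may lie just under its threshold.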
